A study of Mus musculus with 12 samples.

Results

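The 10 genes of matrix proteoglycans and matricellular glycoproteins followed here were measured in 2 mouse striatal cell lines after heat shock and at their growth temperature. They were Dcn (decorin), Bgn (biglycan), Lum (lumican), Vcan (versican), Fn1 (fibronectin), Tnc (tenascin-C), Tgfbi (TGF-beta induced protein), Sparc, Postn (periostin) and Thbs1 (thrombospondin-1). They are among 18193 genes measured, and every probe set whose annotation names one of them was taken. There were 29 such probe sets, of which 28 name 1 gene and 1 names both Thbs1 and Pald1 and was assigned to neither.

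The cells were STHdhQ111/Q111 (Q111 cells), striatal cells from knock-in embryonic mice with an expanded huntingtin polyglutamine tract, and STHdhQ7/Q7 (Q7 cells), the matching cells with a wild-type tract. Both were kept in medium with serum and G418 at 33 °C. The 4 groups were Q111 cells heat-shocked at 42 °C for 6 h, Q111 cells at 33 °C, Q7 cells heat-shocked at 42 °C for 6 h, and Q7 cells at 33 °C, with 3 arrays each. Each line carries 1 genotype, so a difference between the lines cannot be told apart from other differences between 2 separately derived cell lines. The labels do not say whether replicates came from separate cultures, so each p-value reflects array-to-array spread alone, which may be technical.

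Proteoglycans are proteins that carry glycosaminoglycan chains. Decorin, biglycan and lumican are small leucine-rich proteoglycans that bind collagen fibrils, and versican is a large chondroitin sulfate proteoglycan that binds hyaluronan. Matricellular glycoproteins such as tenascin-C, SPARC, periostin and thrombospondin-1 are secreted into the matrix and modulate how cells attach to it, whereas fibronectin is a structural adhesive glycoprotein. In the brain these molecules are made by glial, meningeal and vascular cells and by neural progenitors, and many of them change after injury.

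Expression was measured as total RNA on Affymetrix MG430 2.0 arrays, and each value is a log2 level of a probe set. The background range was set from 27 control probe sets for bacterial transcripts, none of which had been spiked in. Their median was 2.85 and their highest value on any array, 5.14, is the bound used here. Of the 28 probe sets, 17 lay above the bound on all 12 arrays, 7 on some arrays and 4 on none. Levels of different probe sets depend on their probes, so no probe set was set against another.

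The lines also differed in markers of other cell types, given as the mean level of a list per array. The 10 fibroblast and meningeal markers, of which 8 exceeded the bound in a group (Thy1 and Fap did not), ranged over 9.58 to 9.86 in heat-shocked Q111 cells, 10.35 to 10.49 in Q111 cells at 33 °C, 8.01 to 8.31 in heat-shocked Q7 cells and 8.52 to 8.68 in Q7 cells at 33 °C. The 8 neural progenitor markers, of which Prom1 and Sox1 stayed in background range, ranged over 5.84 to 5.91 in heat-shocked Q111 cells, 6.04 to 6.23 in Q111 cells at 33 °C, 7.80 to 7.96 in heat-shocked Q7 cells and 8.12 to 8.24 in Q7 cells at 33 °C. Among the 10 measured markers of striatal projection neurons, 5 exceeded the bound in a group, and Ppp1r1b, Drd2, Isl1, Gad1 and Gad2 stayed in background range. The mean of these 10 ranged over 5.31 to 5.41 in heat-shocked Q111 cells and 4.75 to 4.85 in Q111 cells at 33 °C. In Q7 cells it ranged over 5.0 to 5.38 after heat shock and 5.17 to 5.2 at 33 °C. The difference between the 3′ and 5′ actin control probe sets, a measure related to RNA integrity and labelling, was 1.25 ± 0.23 in heat-shocked Q111 cells, 0.72 ± 0.36 in Q111 cells at 33 °C, 1.48 ± 0.13 in heat-shocked Q7 cells and 0.54 ± 0.16 in Q7 cells at 33 °C (SD, n = 3 each).

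Sequence upstream of 3 members whose levels differed between the lines is shown here because Bgn and Tgfbi were higher and Tnc lower in Q111 cells. The sequences are the 250 bases before the annotated start, 5′ to 3′ on the gene's strand, from RefSeq on GRCm38.p6. Those coordinates are chrX:73483351-73483600 on the plus strand for Bgn, chr13:56609336-56609585 on the plus strand for Tgfbi and chr4:64047016-64047265 on the minus strand for Tnc. Capitals mark matches to the GC box (GGGCGG or CCGCCC), to TATAAA or TTTATA, and to CAGAC or GTCTG, the core letters bound by SMAD proteins.
Bgn upstream: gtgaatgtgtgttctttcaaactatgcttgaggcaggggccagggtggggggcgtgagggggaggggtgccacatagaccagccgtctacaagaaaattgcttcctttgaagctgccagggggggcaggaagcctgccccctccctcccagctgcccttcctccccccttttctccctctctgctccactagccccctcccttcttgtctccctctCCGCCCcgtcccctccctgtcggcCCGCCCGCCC
Tgfbi upstream: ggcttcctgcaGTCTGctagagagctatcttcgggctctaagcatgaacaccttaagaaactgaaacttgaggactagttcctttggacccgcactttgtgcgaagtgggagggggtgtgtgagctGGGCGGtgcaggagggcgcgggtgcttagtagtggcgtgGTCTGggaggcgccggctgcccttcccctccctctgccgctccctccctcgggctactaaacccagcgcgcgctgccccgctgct
Tnc upstream: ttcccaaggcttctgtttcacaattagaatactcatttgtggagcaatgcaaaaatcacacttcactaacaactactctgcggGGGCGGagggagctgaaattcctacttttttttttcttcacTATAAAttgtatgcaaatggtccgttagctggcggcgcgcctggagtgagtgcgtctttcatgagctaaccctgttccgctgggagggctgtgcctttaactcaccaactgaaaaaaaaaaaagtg

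The Bgn stretch held 3 GC boxes, 2 of them overlapping next to the start. The Tgfbi stretch held 1 GC box and 2 copies of GTCTG, and the Tnc stretch 1 GC box and 1 TATAAA. In windows of 250 bases before to 50 after the start, RefSeq held 6 of the 10 members (Bgn, Vcan, Tnc, Tgfbi, Sparc and Postn). None of these 6 windows held the inverted heat shock pair (GAANNTTC or TTCNNGAA), the AP-1 letters TGANTCA, the TEAD letters (GGAATG or CATTCC) or a CArG box on either strand. The Vcan window lay at another start site (chr13:89742512) than the annotated start of the gene (89743027). Of the 32851 windows of this length that were counted, with 1 chromosome left out, 15.1% held the heat shock pair and 7.81% the AP-1 letters. The TEAD letters were in 14.7% and a CArG box in 1.63%. A GC box was in 35.7%, TATAAA or TTTATA in 13.6% and CAGAC or GTCTG in 49.6%. These letter matches are descriptions only, and the heat shock and AP-1 letters not being in a window says nothing of the factors.

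Heat shock lowered more member probe sets than it raised in both lines. In Q111 cells 13 of 28 fell and 4 rose, and in Q7 cells 16 fell and 0 rose by limma with Benjamini-Hochberg adjustment at an adjusted p under 0.05. For comparison, 42.1% of all probe sets were called in Q111 cells (19.8% higher, 22.3% lower) and 24.1% in Q7 cells (10% higher, 14.1% lower). The median member difference was −0.57 in Q111 cells and −0.93 in Q7 cells, where all probe sets had a median of 0.05 and 0.02. Arrays of the groups did not overlap for 16 member probe sets in Q111 cells (51.3% of all probe sets) and for 20 in Q7 cells (43.2%). In bulk RNA, fewer cells of a type and less RNA per cell cannot be told apart.

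The counts of both heat shock comparisons changed with the scaling and with the actin covariate. Centring each array on the median of the brightest probe set per gene, which shifted the median of all probe sets to 0.78 in Q111 and 0.37 in Q7 cells, gave 8 higher and 6 lower member probe sets in Q111 cells and 1 higher and 12 lower in Q7 cells. Of all 45037 probe sets, 28198 were then higher and 4442 lower in Q111 cells, and 9488 higher and 3814 lower in Q7 cells. With the actin 3′ to 5′ difference as a covariate, 8 member probe sets were called in Q111 cells (1 higher, 7 lower) and 1 in Q7 cells (lower). Calls over all 45037 probe sets fell as well, from 18952 to 7349 in Q111 cells and from 10864 to 567 in Q7 cells. The actin difference moved with heat shock in both lines, and its part in these results was not tested.

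**Figure D1:**
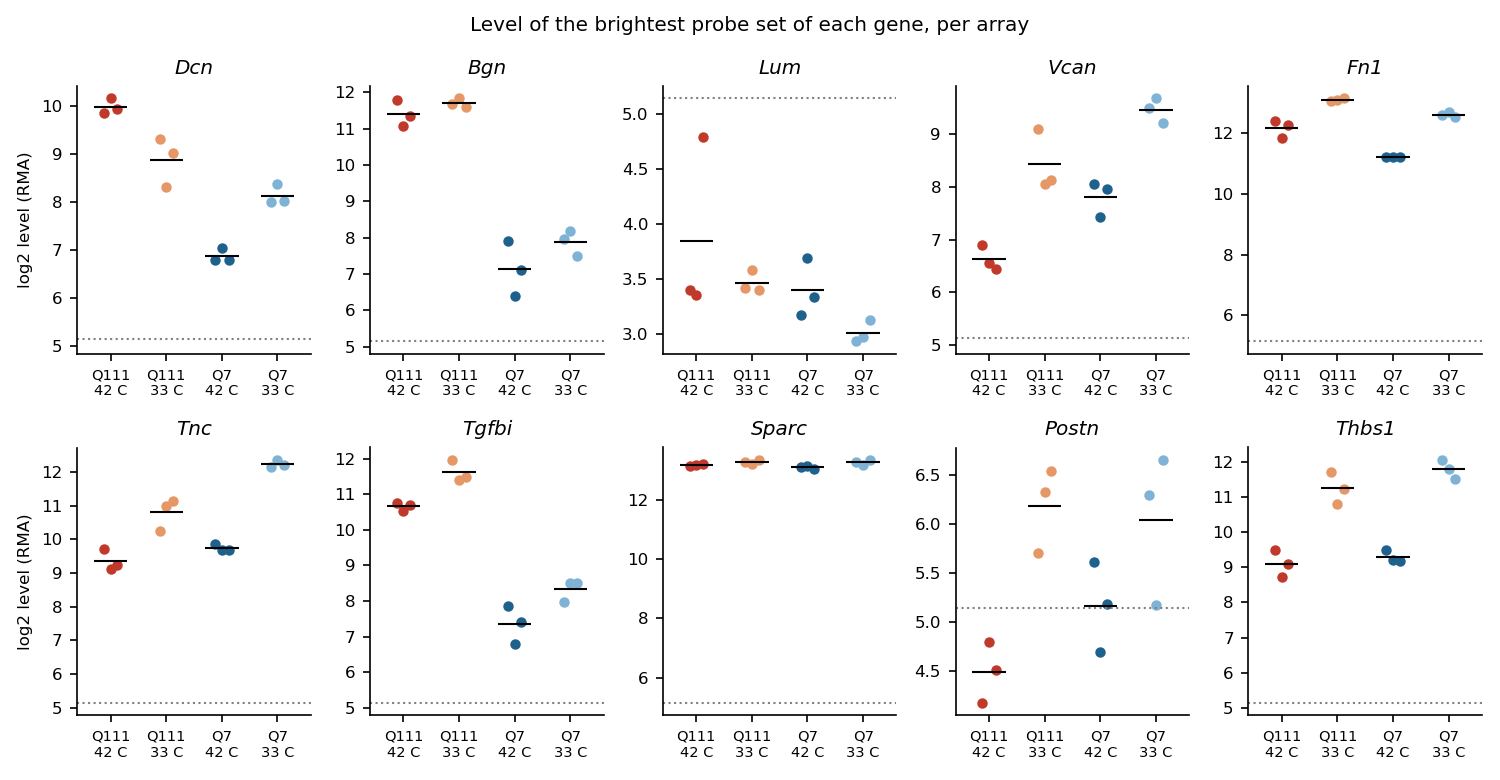
Log2 level of the brightest probe set of each of the 10 genes on each array (points), with the group mean (bar) and the bound of background range at 5.14 (dotted line); 42 C is heat shock and 33 C growth temperature. Bgn and Tgfbi were high in all Q111 arrays, Thbs1, Vcan, Fn1 and Tnc were lower after heat shock in both lines, and Lum lay below the bound throughout.

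Among the small leucine-rich proteoglycans, Dcn was the member whose heat shock response differed between the lines. Dcn probe set 1449368_at, the brighter of its pair, had 9.84, 10.16 and 9.94 in heat-shocked Q111 cells and 9.30, 8.31 and 9.02 in Q111 cells at 33 °C. In Q7 cells it had 6.80, 7.04 and 6.79 after heat shock and 7.99, 8.37 and 8.02 at 33 °C. All 3 heat-shocked arrays were above all 3 arrays at 33 °C in the Q111 line and below them in the Q7 line. Dcn rose by 1.11 ± 0.23 (SE) in Q111 cells, a 2.16-fold increase (adjusted p = 0.00347), and fell by 1.25 ± 0.23 in Q7 cells, a 2.37-fold decrease (adjusted p = 0.00267). The difference of the responses, Q111 minus Q7, was 2.35 ± 0.33 (adjusted p = 0.00703). The Q7 fall of Dcn was not called with the actin covariate (−0.48, adjusted p = 0.708) or as the mean of both Dcn probe sets (−0.18, adjusted p = 0.767), where the difference of responses was 2.02 (adjusted p = 0.0301) and 1.70 (adjusted p = 0.0936). The Q111 rise was 1.83 with arrays centred on the brightest probe sets (adjusted p = 0.000301).

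That Dcn probe set was the only one of 28 called for the difference of responses, where 2.68% of all probe sets were called (0.611% higher, 2.07% lower). After heat shock Dcn was 3.10 ± 0.23 higher in Q111 than in Q7 cells, 8.59-fold (adjusted p = 1.34e-05). At 33 °C the difference was 0.75 ± 0.23 and was not called (adjusted p = 0.0952), but it was 1.03 (adjusted p = 0.0082) without replicate 2 of Q111 cells at 33 °C. It was also called with arrays centred on ribosomal protein genes (0.84, adjusted p = 0.0392) and with the actin covariate (0.89, adjusted p = 0.0348).

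Bgn was high in Q111 cells and far lower in Q7 cells at both temperatures. Bgn 1416405_at had 11.80, 11.07 and 11.35 in heat-shocked Q111 cells and 7.90, 6.38 and 7.12 in heat-shocked Q7 cells. At 33 °C it had 11.67, 11.84 and 11.59 in Q111 cells and 7.95, 8.18 and 7.49 in Q7 cells. The lines did not overlap at either temperature. The line difference was 4.27 ± 0.34 after heat shock, 19.3-fold (adjusted p = 2.05e-05), and 3.83 ± 0.34 at 33 °C, 14.2-fold (adjusted p = 3e-05).

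The other Bgn probe sets gave 4.21 and 4.58 after heat shock and 3.77 and 4.03 at 33 °C. Heat shock itself moved no Bgn probe set past the threshold. Its difference for 1416405_at was −0.30 ± 0.34 in Q111 cells (adjusted p = 0.505) and −0.74 ± 0.34 in Q7 cells (adjusted p = 0.147). Without replicate 1 of heat-shocked Q7 cells, the array with the highest Bgn level of its group, the Q7 difference was −1.12 (adjusted p = 0.0196), and the other 2 Bgn probe sets were called lower as well (adjusted p = 0.0243 and 0.0211).

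Lum had 1 probe set, 1423607_at, and it lay in background range on all 12 arrays, with a highest value of 4.79 in heat-shocked Q111 cells. No direction was read from it. The 2 Dcn probe sets were not alike. Probe set 1441506_at had 7.03, 6.52 and 8.56 in heat-shocked Q111 cells and 5.38, 4.77 and 6.18 in Q111 cells at 33 °C, and 5.29, 6.99 and 5.95 in heat-shocked Q7 cells and 4.61, 4.39 and 6.59 in Q7 cells at 33 °C.

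This second Dcn probe set rose by 1.93 ± 0.69 in Q111 cells (adjusted p = 0.0433), the direction of the first, and was not called without replicate 3 of heat-shocked Q111 cells (1.33, adjusted p = 0.148) or any of 5 other arrays (up to 0.142). With the replicate number as a block, its adjusted p was 0.0022 with only the Q111 groups fitted and 0.0186 with all arrays. In Q7 cells its difference was 0.88 ± 0.69 (adjusted p = 0.411), of opposite sign to the first and not called. The difference of responses was 1.05 ± 0.98 (adjusted p = 0.622).

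Vcan, the hyaluronan-binding proteoglycan, fell after heat shock in both lines by its brightest probe set. Vcan 1427256_at had 6.89, 6.56 and 6.45 in heat-shocked Q111 cells and 9.10, 8.06 and 8.12 in Q111 cells at 33 °C. In Q7 cells it had 8.06, 7.42 and 7.96 after heat shock and 9.49, 9.68 and 9.21 at 33 °C. The groups did not overlap in either line. It fell by 1.79 ± 0.28 in Q111 cells, 3.47-fold (adjusted p = 0.000679), and by 1.65 ± 0.28 in Q7 cells, 3.14-fold (adjusted p = 0.00168). With the actin covariate the Q7 call was lost (−0.79, adjusted p = 0.581), and with arrays centred on the brightest probe sets the Q111 value was −1.07 (adjusted p = 0.0049).

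After heat shock Vcan 1427256_at was lower in the Q111 line, with a difference of −1.18 ± 0.28 (adjusted p = 0.0172), a call lost without replicate 1 (0.0759) or replicate 3 (0.0721) of heat-shocked Q7 cells and with arrays centred on the brightest probe sets (−0.80, adjusted p = 0.0511). The other Vcan probe sets above the bound on some arrays were not called in this comparison and differed in sign, with −0.29 for 1427257_at (adjusted p = 0.552), −0.12 for 1421694_a_at (adjusted p = 0.849), 2.33 for 1433043_at without overlap of the lines (adjusted p = 0.187) and 1.16 for 1433044_at (adjusted p = 0.4). At 33 °C the difference for 1427256_at was −1.03 ± 0.28 (adjusted p = 0.0559), which passed without replicate 1 of Q111 cells at 33 °C (−1.37, adjusted p = 0.00597) or replicate 2 of heat-shocked Q7 cells (0.0492), and with arrays centred on the brightest probe sets (0.0426). Other settings in which it passed included brightest probe sets alone (0.0353), further quantile normalization (0.0359), array weights (0.00892) and the replicate block over all arrays (0.0332). Over all alternatives its adjusted p ranged over 0.00597 to 0.397. Probe set 1421694_a_at also fell in both lines, by 0.91 ± 0.34 in Q111 cells (adjusted p = 0.0491) and 2.01 ± 0.34 in Q7 cells (adjusted p = 0.00144). Its call in Q111 cells was lost without any of 9 of the 12 arrays, with adjusted p-values of up to 0.162. Probe set 1427257_at fell by 1.41 in Q7 cells (adjusted p = 0.00566) and gave −0.74 in Q111 cells (adjusted p = 0.069, or 0.00961 without replicate 3 of heat-shocked Q111 cells).

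Other Vcan probe sets behaved differently. Vcan 1433043_at had 7.07, 6.14 and 9.19 in heat-shocked Q111 cells, 3.65, 2.76 and 6.60 in Q111 cells at 33 °C, 4.53, 5.93 and 4.95 in heat-shocked Q7 cells and 3.28, 3.03 and 6.26 in Q7 cells at 33 °C. It was called higher in heat-shocked Q111 cells than in Q111 cells at 33 °C, with 3.13 ± 1.12 (adjusted p = 0.0431), opposite to 1427256_at. The call was lost without replicate 3 of heat-shocked Q111 cells (2.27, adjusted p = 0.144) or any of 6 other arrays (up to 0.157). With the replicate number as a block in these groups, the adjusted p of 1433043_at was 0.000878, and 0.00937 with the block over all arrays. With the block in these groups, 1433044_at was called higher too (1.35, adjusted p = 0.0063, against 0.237 without the block), but not with the block over all arrays (0.133). Replicate 3 of each Q111 group and of Q7 cells at 33 °C, and replicate 2 of heat-shocked Q7 cells, gave the highest value of 1433043_at in each group.

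The same arrays were highest in their groups for Vcan 1433044_at and Dcn 1441506_at. They were also the highest for the control probe set of the B2 repeat, a short interspersed repeat, with 10.72, 8.68, 9.96 and 8.81 in heat-shocked Q111, Q111 at 33 °C, heat-shocked Q7 and Q7 cells at 33 °C. The B2 control ranged over 9.96 to 10.72, 8.25 to 8.68, 9.22 to 9.96 and 7.90 to 8.81 in these groups, so it too was higher after heat shock in both lines. Its part in the Vcan and Dcn values was not tested. Without replicate 3 of heat-shocked Q111 cells, 14 member probe sets were called for heat shock in Q111 cells, 2 higher and 12 lower. Of all 45037 probe sets, 7816 were then higher and 8770 lower.

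Vcan 1447887_x_at, 1447586_at and 1459767_x_at lay in background range on every array. The first of them was nevertheless called lower in heat-shocked Q7 cells, by 1.28 ± 0.29 (adjusted p = 0.00852), and no direction was read from it.

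**Figure D2:**
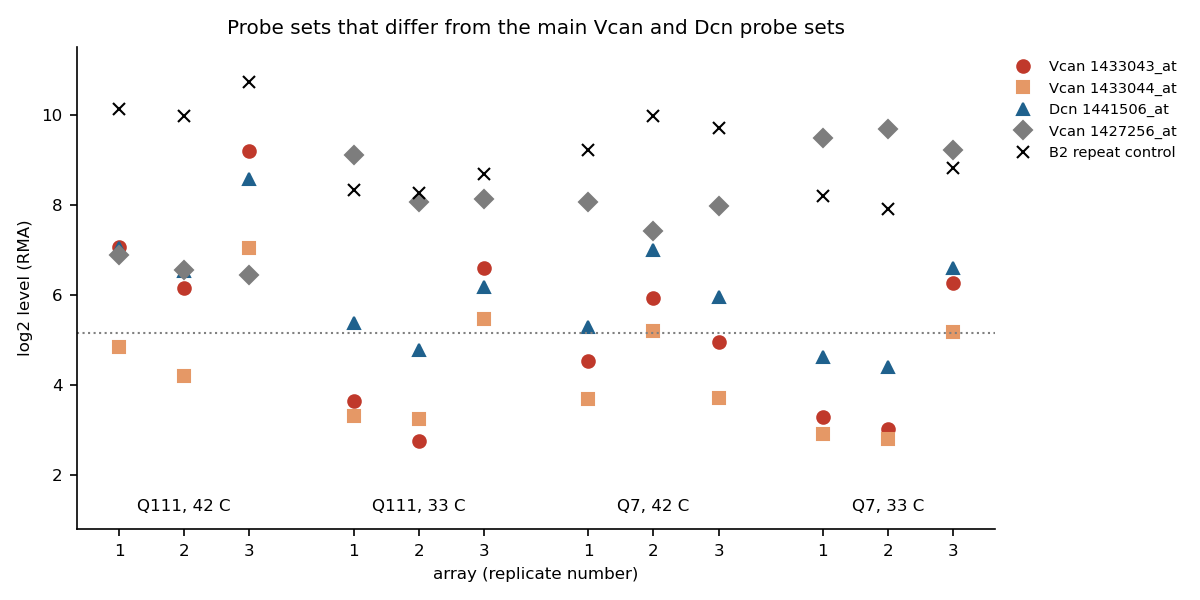
Log2 level on each of the 12 arrays of Vcan 1433043_at, Vcan 1433044_at, Dcn 1441506_at, the brightest Vcan probe set 1427256_at and the B2 repeat control; the dotted line is the background bound of 5.14. The first 3 probe sets were highest in each group on the array that was highest for the B2 control, while Vcan 1427256_at was lower after heat shock.

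Fn1, which cells assemble into adhesive fibrils through integrins, fell in both lines. Fn1 1426642_at had 12.42, 11.86 and 12.28 in heat-shocked Q111 cells and 13.06, 13.11 and 13.16 in Q111 cells at 33 °C. In Q7 cells it had 11.21, 11.21 and 11.22 after heat shock and 12.61, 12.71 and 12.54 at 33 °C. The heat-shocked arrays lay below all arrays at 33 °C of their line. The fall was 0.92 ± 0.15 in Q111 cells (adjusted p = 0.000867) and 1.40 ± 0.15 in Q7 cells (adjusted p = 0.000107). With arrays centred on the brightest probe sets the Q111 call was lost (−0.20, adjusted p = 0.377), and with the actin covariate the Q7 call was lost (−1.17, adjusted p = 0.108).

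A second Fn1 probe set, 1437218_at, had 4.86, 4.15 and 4.36 in heat-shocked Q111 cells and 9.23, 7.28 and 8.19 in Q111 cells at 33 °C. It fell by 3.77 ± 0.47 in Q111 cells (adjusted p = 0.000154) and by 2.12 ± 0.47 in Q7 cells (adjusted p = 0.00678), and its heat-shocked Q111 values were within background range. Between the lines, Fn1 1426642_at was 0.97 ± 0.15 higher in Q111 cells after heat shock (adjusted p = 0.00161), and 0.49 ± 0.15 at 33 °C was not called (adjusted p = 0.0953, or 0.0332 without replicate 2 of heat-shocked Q111 cells). Fn1 1437218_at had the opposite sign after heat shock, with −0.78 ± 0.47 and no overlap of the lines (adjusted p = 0.283), and the mean of both Fn1 probe sets gave 0.0955 (adjusted p = 0.824).

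Tnc, a hexameric anti-adhesive glycoprotein, fell in both lines, and at 33 °C its level was lower in Q111 cells. Tnc 1416342_at had 9.72, 9.13 and 9.25 in heat-shocked Q111 cells and 10.25, 11 and 11.15 in Q111 cells at 33 °C. In Q7 cells it had 9.85, 9.68 and 9.70 after heat shock and 12.16, 12.37 and 12.20 at 33 °C. The heat-shocked and 33 °C arrays did not overlap in either line, and the lines did not overlap at 33 °C.

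Tnc fell by 1.43 ± 0.23 in Q111 cells, 2.7-fold (adjusted p = 0.000763), and by 2.50 ± 0.23 in Q7 cells, 5.65-fold (adjusted p = 4.33e-05). It was the 1 member probe set called in Q7 cells with the actin covariate (adjusted p = 0.0499). At 33 °C its level in Q111 cells minus that in Q7 cells was −1.44 ± 0.23 (adjusted p = 0.00238). After heat shock the difference was −0.38 ± 0.23 (adjusted p = 0.296), and the difference of responses was 1.06 ± 0.33 (adjusted p = 0.121). With arrays centred on the brightest probe sets the Q111 value was −0.71 (adjusted p = 0.0144) and the difference of responses was called (1.44, adjusted p = 0.0378). Tnc 1456344_at, dimmer, fell by 1.69 in Q7 cells (adjusted p = 0.0124, or 0.0509 without replicate 2 of heat-shocked Q7 cells) and gave −0.61 in Q111 cells (adjusted p = 0.259).

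Tgfbi, a secreted integrin ligand induced by TGF-beta, combined a high level in Q111 cells with a fall in both lines. Tgfbi 1448123_s_at had 10.75, 10.54 and 10.71 in heat-shocked Q111 cells and 11.97, 11.40 and 11.47 in Q111 cells at 33 °C. In Q7 cells it had 7.85, 6.80 and 7.41 after heat shock and 7.98, 8.50 and 8.50 at 33 °C. Both heat shock comparisons and both line comparisons were without overlap.

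Tgfbi fell by 0.95 ± 0.26 in Q111 cells (adjusted p = 0.0148) and by 0.97 ± 0.26 in Q7 cells (adjusted p = 0.0197). The Q111 call was lost without replicate 1 of Q111 cells at 33 °C (adjusted p = 0.0592), and the Q7 call without any of 4 Q7 arrays (replicates 2 and 3 of each Q7 group, adjusted p of 0.0531 to 0.0785). Both calls were also lost with arrays centred on the brightest probe sets (−0.22, adjusted p = 0.439, in Q111 cells and −0.62, adjusted p = 0.0792, in Q7 cells) and with the actin covariate (−0.56, adjusted p = 0.288, in Q111 cells and −0.29, adjusted p = 0.895, in Q7 cells). Without these changes its other 3 probe sets were called lower in both lines as well, by 0.68 to 1.05 in Q111 cells and 0.83 to 1.23 in Q7 cells. Of these, 1456250_x_at lost its Q111 call without any of 10 of the 12 arrays (adjusted p of up to 0.125), and 1415871_at its Q7 call without any of 4 (up to 0.0877). It was 3.31 ± 0.26 higher in Q111 than in Q7 cells after heat shock, 9.92-fold (adjusted p = 2.05e-05), and 3.28 ± 0.26 higher at 33 °C, 9.74-fold (adjusted p = 1.39e-05). The other 3 probe sets gave 3.29 to 3.73 after heat shock and 3.15 to 3.45 at 33 °C.

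**Figure D3:**
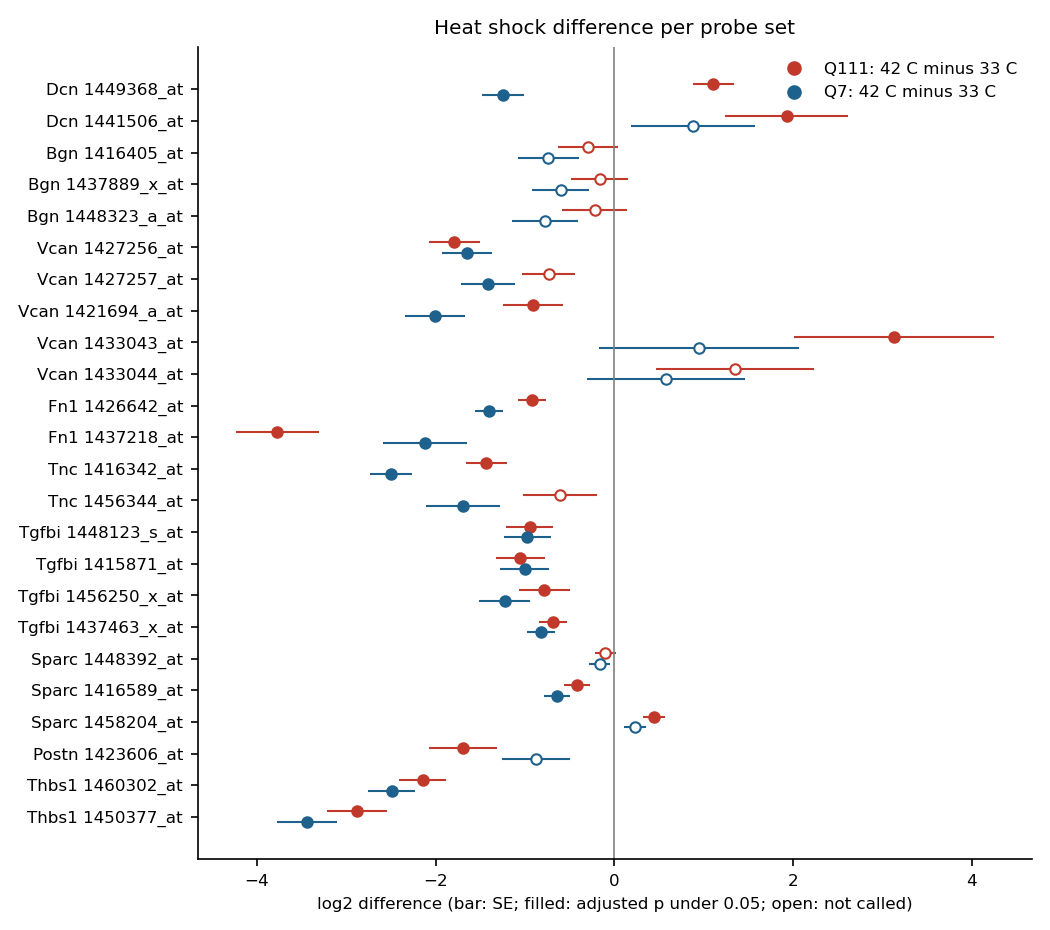
Heat shock difference (42 C minus 33 C, log2) with its SE for each of the 24 member probe sets above background range on at least 1 array, Q111 cells and Q7 cells; filled points passed an adjusted p under 0.05. Thbs1 1450377_at and Fn1 1437218_at had the largest falls in Q111 cells and Thbs1 1450377_at and Tnc 1416342_at in Q7 cells, Dcn 1449368_at lay on opposite sides of 0 in the lines, and the Bgn probe sets were not called.

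Sparc, a collagen-binding matricellular protein, was near the top of the scale in all groups. Sparc 1448392_at had 13.14, 13.19 and 13.21 in heat-shocked Q111 cells, 13.29, 13.21 and 13.34 in Q111 cells at 33 °C, 13.12, 13.16 and 13.04 in heat-shocked Q7 cells and 13.27, 13.18 and 13.36 in Q7 cells at 33 °C. In Q111 cells the ranges of the groups met at 13.21, and in Q7 cells the heat-shocked arrays all lay slightly below those at 33 °C. The highest value of any probe set on any array was 14.69. Its heat shock difference was −0.10 ± 0.12 in Q111 cells (adjusted p = 0.512) and −0.16 ± 0.12 in Q7 cells (adjusted p = 0.367), and the Q111 value turned to 0.63 (adjusted p = 0.00935) with arrays centred on the brightest probe sets.

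Sparc 1416589_at fell by 0.42 ± 0.15 in Q111 cells (adjusted p = 0.0423) and by 0.64 ± 0.15 in Q7 cells (adjusted p = 0.00904). The Q111 call was lost with the replicate number as a block (adjusted p = 0.192 with only the Q111 groups fitted, 0.0615 with all arrays). It was also lost without any of 10 of the 12 arrays (up to 0.136). The dim Sparc 1458204_at, at 5.35 to 6.02, rose by 0.44 ± 0.12 in Q111 cells (adjusted p = 0.0157, or 0.054 without replicate 3 of Q111 cells at 33 °C) and gave 0.23 ± 0.12 in Q7 cells (adjusted p = 0.224). With the block its Q111 adjusted p was 0.144 with only the Q111 groups fitted and 0.0229 with all arrays. No Sparc probe set was called between the lines at either temperature.

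Postn, a fasciclin-domain glycoprotein related to Tgfbi, was near the background bound. Postn 1423606_at had 4.18, 4.80 and 4.51 in heat-shocked Q111 cells and 5.71, 6.33 and 6.54 in Q111 cells at 33 °C, without overlap. It had 5.62, 4.70 and 5.19 in heat-shocked Q7 cells and 6.30, 5.18 and 6.66 in Q7 cells at 33 °C, with overlap. It fell by 1.69 ± 0.38 in Q111 cells (adjusted p = 0.00483, with −0.97 and 0.0366 with arrays centred on the brightest probe sets) and gave −0.88 ± 0.38 in Q7 cells (adjusted p = 0.122, or 0.0212 without replicate 2 of Q7 cells at 33 °C).

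Thbs1, a matricellular protein that binds CD47, CD36 and latent TGF-beta, fell strongly in both lines. Thbs1 1460302_at had 9.50, 8.72 and 9.09 in heat-shocked Q111 cells and 11.72, 10.79 and 11.23 in Q111 cells at 33 °C. In Q7 cells it had 9.50, 9.21 and 9.19 after heat shock and 12.06, 11.79 and 11.51 at 33 °C. No arrays overlapped between temperatures in either line.

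The fall was 2.15 ± 0.26 in Q111 cells, 4.42-fold (adjusted p = 0.000147), and 2.49 ± 0.26 in Q7 cells, 5.62-fold (adjusted p = 9.02e-05). With the actin covariate the Q7 call was lost (−1.53, adjusted p = 0.127), and with arrays centred on the brightest probe sets the Q111 value was −1.42 (adjusted p = 0.00149). Thbs1 1450377_at fell by 2.88 ± 0.34 in Q111 cells, 7.39-fold, and by 3.44 ± 0.34 in Q7 cells, 10.8-fold (adjusted p = 0.000111 and 5.93e-05). Neither was called between the lines, with 1460302_at giving −0.20 ± 0.26 after heat shock (adjusted p = 0.655) and −0.54 ± 0.26 at 33 °C (adjusted p = 0.376). Without replicate 3 of Q7 cells at 33 °C, 1450377_at was called lower in Q111 cells at 33 °C (−1.43, adjusted p = 0.0173). The probe set that names both Thbs1 and Pald1 fell by 0.95 in Q111 cells (adjusted p = 0.00247) and by 1.10 in Q7 cells (adjusted p = 0.00151).

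Between the lines at 33 °C, 8 of 28 member probe sets were called, 7 higher and 1 lower in Q111 cells, where 6.78% of all probe sets were called (3.16% higher, 3.62% lower). The 7 were those of Bgn and Tgfbi and the 1 was Tnc 1416342_at. After heat shock 10 were called, 9 higher and 1 lower (15.4% of all probe sets, 4.73% higher and 10.7% lower), adding Dcn 1449368_at and Fn1 1426642_at to those higher, with Vcan 1427256_at the 1 lower. Probe sets of 1 gene share a target and are not separate evidence. Groups did not overlap for 13 member probe sets after heat shock and 15 at 33 °C (31.6% and 22.4% of all probe sets).

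At 33 °C the replicate numbers pair the arrays of the lines, since the deviations of same-numbered arrays correlated (r = 0.574, 0.422 and 0.616). With the replicate number as a block and only these groups fitted, 6004 of all 45037 probe sets were called there (2886 higher, 3118 lower). The fit of all 4 groups without a block had called 3054. Member probe sets called with this block were 15, 8 higher and 7 lower in Q111 cells. The 7 added were 4 of Vcan, of which 1427256_at, 1427257_at and 1421694_a_at had −1.03, −0.96 and −1.21 (adjusted p = 0.0257, 0.0259 and 0.0192) and 1447887_x_at lay in background range, with Tnc 1456344_at (−1.38, adjusted p = 0.0268), Fn1 1426642_at (0.49, adjusted p = 0.0489) and Thbs1 1450377_at (−1.06, adjusted p = 0.0412). The mean level of the fibroblast and meningeal markers was also higher in Q111 cells at both temperatures, and 6 of the 10 markers were called higher after heat shock and 5 at 33 °C. Its part in the Bgn and Tgfbi differences was not tested.

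**Figure D4:**
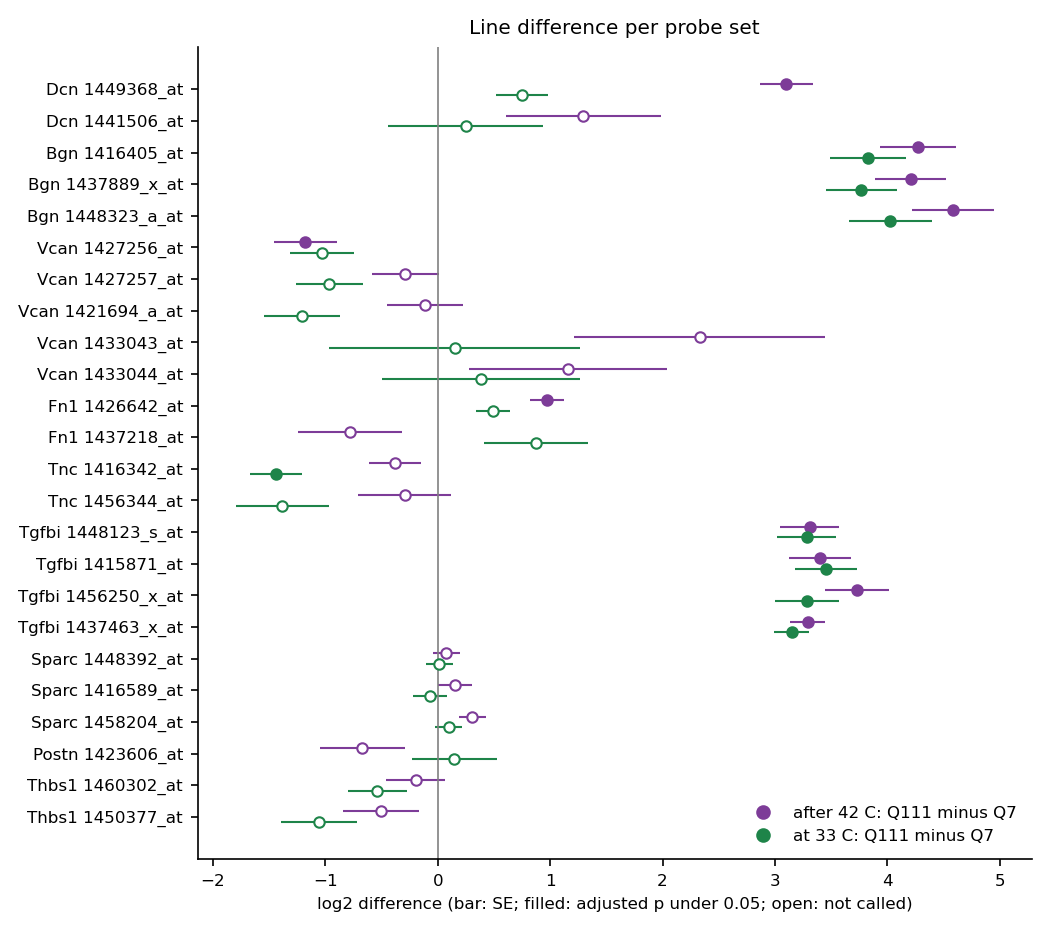
Line difference (Q111 minus Q7, log2) with its SE after heat shock and at 33 C for the same 24 probe sets; filled points passed an adjusted p under 0.05. All 3 Bgn and all 4 Tgfbi probe sets lay above 3 at both temperatures, and the Sparc probe sets lay near 0.

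Other genes of the same pathways were taken from lists of related proteoglycans, matricellular proteins, chain-synthesis enzymes, receptors and TGF-beta components. Of 146 such genes outside the members, 140 were measured, by their brightest probe set, and 113 exceeded the background bound. Heat shock called 56 lower and 18 higher in Q111 cells and 44 lower and 9 higher in Q7 cells, where 27.2% and 18.5% of brightest probe sets were lower and higher in Q111 cells and 16.8% and 11.2% in Q7 cells. The difference of responses was called higher for 6 and lower for 6 of the 140 genes (0.841% and 2.96% of brightest probe sets). The median differences of these genes were −0.34 and −0.27 in the Q111 and Q7 lines. Among the genes higher in Q111 cells were Hapln1 (3.24 ± 0.67), Epyc (2.39 ± 0.72) and Ncan (1.57 ± 0.26). The difference of responses was lower for Gpc2 (−2.24 ± 0.43, adjusted p = 0.0262) and Acan (−2.10 ± 0.37, adjusted p = 0.0187), and higher for Hapln4 (1.04 ± 0.22, adjusted p = 0.0339), among others.

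After heat shock the chain-synthesis enzymes had 12 of 27 genes lower and 2 higher in Q111 cells, and 9 lower and 2 higher in Q7 cells. Of all brightest probe sets, 27.2% were lower and 18.5% higher in Q111 cells, and 16.8% and 11.2% in Q7 cells. Chst11, a chondroitin 4-sulfotransferase, fell by 3.19 ± 0.29 in Q111 cells and 2.05 ± 0.29 in Q7 cells, and Chst12, another, by 3.31 ± 0.33 in Q111 cells and 2.04 ± 0.33 in Q7 cells. Dsel, a dermatan sulfate epimerase homologue, fell by 2.45 ± 0.24 in Q111 cells and 1.43 ± 0.24 in Q7 cells. The hyaluronan-binding Cemip, which takes part in hyaluronan breakdown, fell by 4.07 ± 0.43 in Q111 cells and 3.48 ± 0.43 in Q7 cells.

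Among the relatives of Thbs1, Thbs2 fell by 1.28 ± 0.17 in Q111 cells and 1.42 ± 0.17 in Q7 cells, and Thbs3 by 1.25 ± 0.36 in Q111 cells and 1.33 ± 0.36 in Q7 cells. Of the SPARC family, Fstl1 fell by 0.86 ± 0.14 in Q111 cells and 1.86 ± 0.14 in Q7 cells, and the difference of its responses was called (1.0 ± 0.19, adjusted p = 0.026). The receptors had 10 of 21 genes lower after heat shock in each line, with 4 higher in Q111 and 1 higher in Q7 cells. The shares of all brightest probe sets were 27.2% lower and 18.5% higher in Q111 cells, and 16.8% and 11.2% in Q7 cells. Itgb3, a subunit of an integrin that binds fibronectin and thrombospondin, fell by 2.00 ± 0.35 in Q111 cells and 2.01 ± 0.35 in Q7 cells.

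TGF-beta components had 10 of 16 genes lower after heat shock in Q111 cells and 5 in Q7 cells, with 3 higher in each. The shares of all brightest probe sets were 27.2% lower and 18.5% higher in Q111 cells, and 16.8% and 11.2% in Q7 cells. Tgfb2, a TGF-beta ligand, fell by 2.11 ± 0.26 in Q111 cells and 1.38 ± 0.26 in Q7 cells. Smad3, which transmits the TGF-beta signal, fell by 2.36 ± 0.15 in Q111 cells (adjusted p = 4.98e-06), and its difference in Q7 cells was −0.38 ± 0.15 (adjusted p = 0.105). The difference of its responses was −1.99 ± 0.22 (adjusted p = 0.00343).

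The small leucine-rich list had 11 measured genes beside the members, of which 4 fell and 1 rose in Q111 cells and 1 fell in Q7 cells. Of all brightest probe sets, 27.2% fell and 18.5% rose in Q111 cells, and 16.8% fell and 11.2% rose in Q7 cells. The median difference of the list was 0.30 in Q111 cells, opposite in sign to most of its calls. Between the lines, Aspn (asporin) was 5.81 ± 0.54 higher in Q111 cells after heat shock and 5.21 ± 0.54 at 33 °C (adjusted p = 5.49e-05 and 9.55e-05). Omd (osteomodulin) was 1.43 ± 0.22 higher in Q111 cells after heat shock and 2.02 ± 0.22 higher at 33 °C. Prelp, a further leucine-rich repeat protein of the matrix, was lower in Q111 cells, with −2.25 ± 0.28 after heat shock and −2.74 ± 0.28 at 33 °C.

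Of the CCN proteins, matricellular relatives of Ccn2, Ccn3 was 3.56 ± 0.35 higher in Q111 cells after heat shock and 3.53 ± 0.35 at 33 °C. Ccn5 was 2.31 ± 0.40 higher in Q111 cells after heat shock and 2.17 ± 0.40 higher at 33 °C. Over all 140 measured genes, 24 were higher and 22 lower in Q111 cells after heat shock (5.5% and 13.9% of brightest probe sets), and 15 higher and 13 lower at 33 °C (4.52% and 4.86%).

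**Figure D5:**
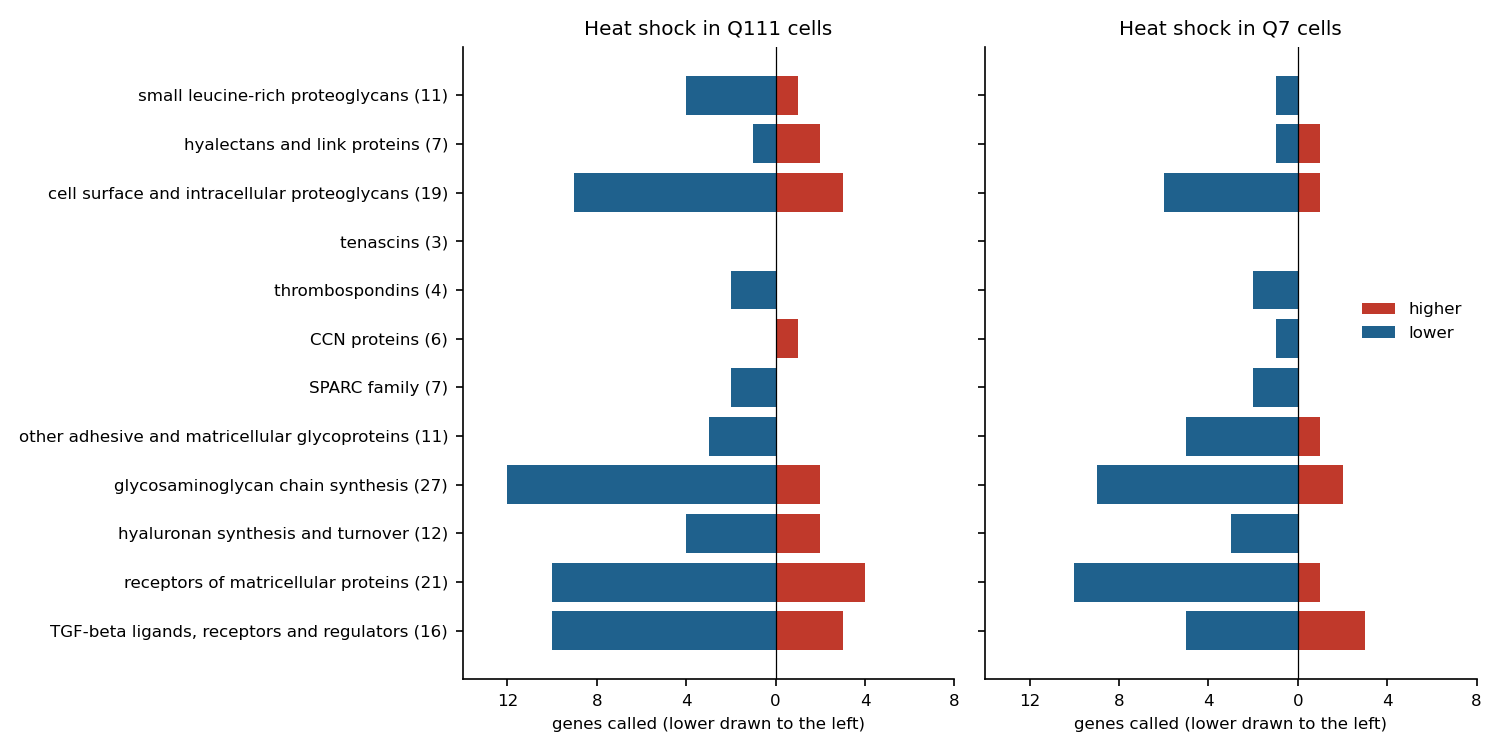
Number of genes called higher (right) and lower (left) after heat shock in Q111 and Q7 cells in each list of related genes, members left out; the number of genes measured is in brackets, and Tgfbr3 and the Spock genes are in 2 lists. Chain synthesis had 12 lower and 2 higher in Q111 cells and 9 lower and 2 higher in Q7 cells. Of all brightest probe sets, 27.2% were lower and 18.5% higher in Q111 cells, and 16.8% and 11.2% in Q7 cells.

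The order of the group means differed among the members. Bgn and Tgfbi were above 10 in both Q111 groups and below 9 in both Q7 groups, and for Bgn the 2 temperatures of a line were not called different. Thbs1, Fn1 and Tnc were highest at 33 °C, in Q7 cells for Thbs1 and Tnc and in Q111 cells for Fn1.

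Likeness was measured as the root mean square distance between centred group means over the 4 groups, among 16314 genes, for members whose means spanned at least 1 log2 unit. The nearest genes were Slpi (0.17) for Dcn, Ccn3 (0.31) for Bgn, Slc6a6 (0.10) for Vcan, Mmp24 (0.05) for Fn1, Slc2a6 (0.06) for Tnc, Pax9 (0.07) for Tgfbi, Dennd4b (0.04) for Postn and Nupl2 (0.09) for Thbs1. Lum and Sparc spanned less than 1 and were left out. With 4 group means, such distances describe these groups only.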

How the data were processed

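The 12 arrays fall 3 to each of 4 groups set by the labels. The authors deposited RMA values, per the submitters' processing notes, and their range shows a log2 scale. Which RMA software and chip definition file were used is not stated in those notes or in the labels. Gene names come from the platform annotation given for the table, updated through gene identifiers; 34741 of the 34945 probe sets that name 1 gene matched. The members and lists were chosen with earlier results of these data known. limma 3.58.1 in R 4.3.3 fitted 4 group means to 45037 probe sets (45101 less 64 controls), with 8 residual and 3.009 prior degrees of freedom, and tested 5 two-sided contrasts with Benjamini-Hochberg adjustment over all probe sets. The fit was tested on simulated data. Named genes were all members and some related genes. The related genes were drawn from up to 3 genes per list and comparison with the largest called difference above background range. Not all of those are printed. Each printed gene value is of its brightest probe set over all arrays.

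Replicate numbers come from the labels, and groups were taken as paired where all 3 same-numbered pairs of deviations correlated above 0.1. This held for the lines at 33 °C (r = 0.574, 0.422 and 0.616) and for heat shock in Q111 cells (0.118, 0.257 and 0.304), but not for heat shock in Q7 cells or the lines after heat shock. In Q111 cells, heat-shocked replicate 1 correlated more with replicate 2 at 33 °C (0.197) than with replicate 1 (0.118). The pairing for heat shock in Q111 cells is therefore uncertain. Alternatives were other summaries of probe sets, filters, scalings, variance models, array weights, blocks, the actin covariate, stricter thresholds and each array left out. The number of arrays limits precision.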

Additional observations from a re-analysis of the deposited data

Results flagged for a closer look

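The heat shock response of Dcn differed between the lines by the test of the difference itself. For probe set 1449368_at the Q111 response minus the Q7 response was 2.35 ± 0.33 (SE, log2; limma adjusted p = 0.00703), with a rise of 1.11 in Q111 cells and a fall of 1.25 in Q7 cells. All 3 heat-shocked arrays were higher in the Q111 line and lower in the Q7 line. Over the alternatives the value ranged over 1.70 to 2.73 and the adjusted p over 0.000785 to 0.0936. The second Dcn probe set, 1441506_at, gave 1.05 ± 0.98 and was not called (adjusted p = 0.622).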

How the results depend on the processing

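Of 1320 alternative values, 1229 kept their direction and side of the threshold. Counts of member probe sets called in Q111 heat shock, Q7 heat shock, the difference of responses, the lines after heat shock and the lines at 33 °C were 7, 6, 1, 5 and 4 of 10 genes with the brightest probe set alone, and 6, 4, 0, 3 and 3 with the mean of a gene's probe sets, where fewer features are tested. Of all 18193 genes, 8758, 5525, 1041, 4018 and 1962 were called with the brightest alone and 8462, 5319, 825, 3777 and 1965 with the mean. With that mean, Vcan turned to 0.065 for heat shock in Q111 cells (adjusted p = 0.862) and to 0.22 between the lines after heat shock (adjusted p = 0.6), because probe sets of opposite sign were averaged; the Dcn difference of responses was then 1.70 (adjusted p = 0.0936). Centring arrays on the brightest probe sets, added after seeing the data, turned Sparc to 0.63 in Q111 cells and gave 2 calls for the difference of responses (1222 of all 45037 probe sets). The share of all called probe sets that were higher was then 86.4% against 47.1% for heat shock in Q111 cells, 71.3% against 41.4% in Q7 cells, 60.6% against 22.7% for the difference of responses and 73.8% against 30.7% between the lines after heat shock. Array weights, fitted gene by gene because the default method did not converge, gave 2 for the difference of responses and 14 for the lines at 33 °C. Calls over all 45037 probe sets rose as well, from 1209 to 3991 for the difference of responses and from 3054 to 4283 at 33 °C. The replicate block with only the groups compared, also added later, gave 15 at 33 °C and 16 for heat shock in Q111 cells, with no change of call among member probe sets beyond those named in the results. Of all 45037 probe sets, that block called 6004 at 33 °C and 15548 for heat shock in Q111 cells. In groups that do not pair by number it gave 11 for heat shock in Q7 cells (8883 of all probe sets) and 8 for the lines after heat shock (679). The block with all arrays gave 16, 16, 1, 10 and 10 in the order above, and 19342, 10938, 1169, 7135 and 2923 of all probe sets. The actin covariate gave 8 in Q111 and 1 in Q7 heat shock, where 7349 and 567 of all 45037 probe sets were called. An adjusted p under 0.01 gave 9 for heat shock in Q111 cells (11177 of all probe sets), and a difference of at least 1 log2 unit gave 10 (11516). Leaving out 1 array gave 11 to 15 in Q111 heat shock, the lowest without Q111 replicate 1 at 33 °C, 13 to 19 in Q7 heat shock, 1 throughout for the difference of responses, 9 to 10 between the lines after heat shock and 8 to 10 at 33 °C. Calls over all 45037 probe sets ranged over 14563 to 18887 in Q111 heat shock and 7344 to 13295 in Q7 heat shock. They ranged over 280 to 1352 for the difference of responses, 3935 to 8079 between the lines after heat shock and 2163 to 3800 at 33 °C. Except where stated, the cause was not tested. Only 3 arrays a group and levels near background for Lum, Postn and 3 Vcan probe sets limit what could be detected. Whether levels near the top of the scale limited what could be detected for Sparc was not tested.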
